A study of Mus musculus with 6 samples.

Results

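The genes of TGF-β signaling were examined in the RNA-Seq of bone marrow-derived macrophages (BMDM) that lack the catalytic subunit of protein phosphatase 2A (PP2Ac). The group was set by name and holds 10 genes of the 55453 in the count table. These are the TGF-β ligand genes *Tgfb1*, *Tgfb2* and *Tgfb3*, the activin A subunit gene *Inhba*, the receptor genes *Tgfbr1* and *Tgfbr2*, the SMAD genes *Smad2*, *Smad3* and *Smad7*, and *Tgfbi*, a gene induced by TGF-β. All 10 were found and all 10 passed the filter on low counts. The samples were 3 PP2Ac KO and 3 PP2Ac WT libraries, all on the C57BL/6 strain. The KO cells came from LysM-cre PP2Ac fl/fl mice, in which exon 1 of *Ppp2ca* is flanked by loxP sites and cre is driven by the *Lyz2* promoter of myeloid cells, and the WT cells came from mice bought from a vendor. Genotype therefore cannot be told apart from colony or from the presence of cre. Mice were 6 to 10 weeks old, and marrow cells were grown with M-CSF or with medium conditioned by L929 fibroblasts until day 7. Both groups are described as given cGAMP, an agonist of STING, at 10 μg/mL for 4 hours before RNA-Seq, but the sample labels state no treatment.

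TGF-β ligands are made as latent dimers that integrins and proteases release. Active ligand binds the type II receptor TGFBR2, which brings in and phosphorylates the type I receptor TGFBR1, and TGFBR1 in turn phosphorylates SMAD2 and SMAD3, which move to the nucleus with SMAD4. SMAD7 is the inhibitory member of the family, which blocks TGFBR1 and is itself induced by the pathway. Activin A, a dimer of the *Inhba* product, uses other receptors but the same SMAD2 and SMAD3. In macrophages the pathway is known for restraint of inflammatory genes and for tissue repair.

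The libraries held 35257156 to 47390899 counts. *Ppp2ca* had 47, 33 and 38 counts in the 3 KO libraries and 10654, 8913 and 8279 in the 3 WT libraries, so the genotypes followed the labels. The 10 macrophage markers ran from *Lyz2*, at 260 to 421 counts, to *Csf1r*, at 110735 to 159722 counts, and 3 of them (*Fcgr1*, *Mertk* and *Spi1*) were higher in KO cells, or 7 with the replicate number fitted as a block. Of the other types, the 9 neutrophil markers summed to at most 3.13 CPM (counts scaled to library size by TMM) and the 6 T and NK cell markers to at most 0.144 CPM in any library. Fibroblast markers were counted too, and less in KO cells: the summed level of 12 such genes was 43.5, 36.1 and 30.0 CPM in KO and 133.9, 144.9 and 94.8 CPM in WT libraries. Of the 11 tested, 9 were lower (not *Thy1* and *Fap*), or 10 with that block, which added *Thy1* (edgeR adjusted p = 0.0369), and each of the 12 had more than 3 counts in at least 1 library. The 7 platelet markers summed to between 6.70 and 8.93 CPM in KO and between 11.5 and 13.8 CPM in WT. Of these, 3 were lower among 5 tested, and *Gp1bb* was at 0 in all 6 libraries. The 5 endothelial markers summed to 240.6 to 312 CPM in KO and 163.7 to 226.4 CPM in WT, with 2 higher and 1 lower among 3 tested. The 4 smooth muscle markers summed to 2.0 to 2.7 CPM in KO and 8.0 to 9.1 CPM in WT, and the 1 tested was lower. Beside these counts, 18.1% of all genes tested were higher and 19.0% lower, or 24.4% and 26.4% with the block.

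Expressed per kilobase of exon, the members spanned more than 3 orders of magnitude. *Tgfbi* and *Tgfb1* stood at the top in both genotypes. *Tgfbi* ran from 102.3 to 127.9 CPM per kilobase in WT and from 106.7 to 138.7 in KO. *Tgfb1* ran from 98.0 to 106.9 and from 105.8 to 109.1, so that their ranges overlapped in each genotype, although *Tgfbi* was the higher in all 6 libraries. Next came *Tgfbr1* and *Tgfbr2*, whose ranges were apart in WT (39.4 to 45.8 against 21.5 to 25.1) and overlapped in KO (27.2 to 31.6 against 24.7 to 27.7). *Smad7* and *Tgfb3* followed and overlapped in both genotypes. *Smad2* lay above *Smad3* in all libraries, and *Tgfb3* overlapped *Smad2* in WT alone. *Inhba* was next to last at 1.44 ± 0.627 CPM per kilobase in WT and 0.656 ± 0.140 in KO (SD, n = 3). *Tgfb2* was last at 0.0623 ± 0.0191 and 0.0324 ± 0.000879. Lengths are of all annotated exons of a gene, so these levels can be off where cells use a short transcript.

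**Figure D1:**
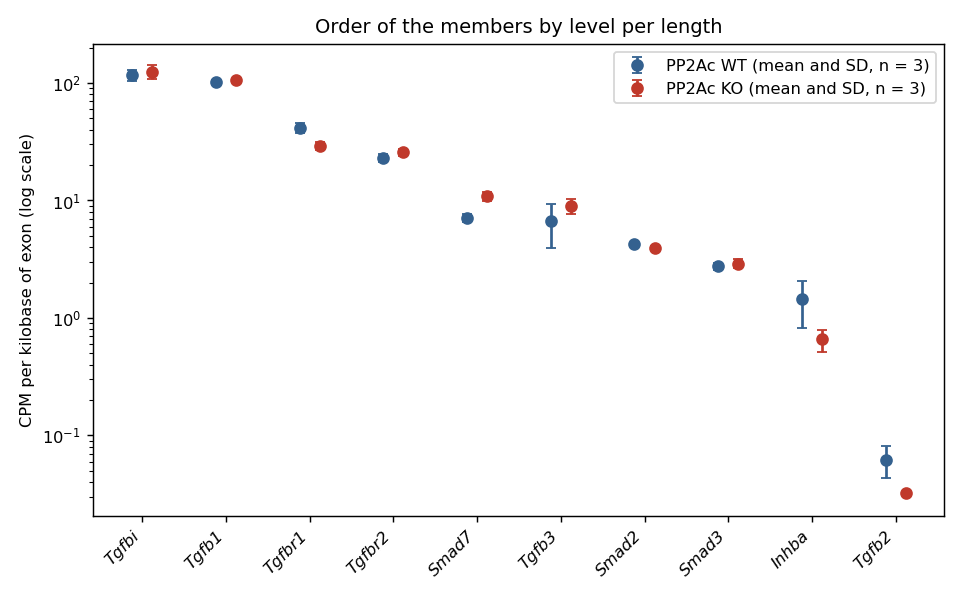
Level of each member as CPM per kilobase of exon on a log scale, in the order of the WT means, with points at the mean and bars for the SD of 3 libraries in WT (blue) and KO (red). *Tgfbi* and *Tgfb1* lie near 100 CPM per kilobase and *Tgfb2* lies under 0.1 in both genotypes.

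Of the 10 members, 1 rose and 2 fell in PP2Ac KO BMDM. *Smad7*, the pathway inhibitor, was higher, and *Inhba* and the type I receptor gene *Tgfbr1* were lower. These 3 calls (edgeR's quasi-likelihood test, Benjamini-Hochberg adjusted p under 0.05 over 13680 genes) are 30% of the members, beside 37.1% of all genes tested, so the members were not called more often than other genes. By direction, 18.1% of all genes were higher and 19.0% lower. The split of all called genes moved from 48.7% higher to 38.4% higher with upper-quartile scaling. The ranges of KO and WT values were apart for 5 members, beside 50.9% of all genes tested. *Tgfb2* is among these members and passed the filter on low counts only through WT, where it was higher. None passed the thresholds of a log2 fold change over 1 in size and adjusted p under 0.01, which 6.35% of all genes passed, although 4 had an unadjusted p under 0.05. At those thresholds *Inhba* was called by DESeq2 and, in edgeR, with upper-quartile scaling, without a filter on low counts, with the replicate block and without WT replicate 3, and limma-voom called 0. In the fit that blocks on the replicate, 3 members were higher (*Smad7*, *Tgfb3*, *Tgfbr2*) and 2 lower, beside 50.9% of all genes called in that fit (24.4% higher and 26.4% lower).

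**Figure D2:**
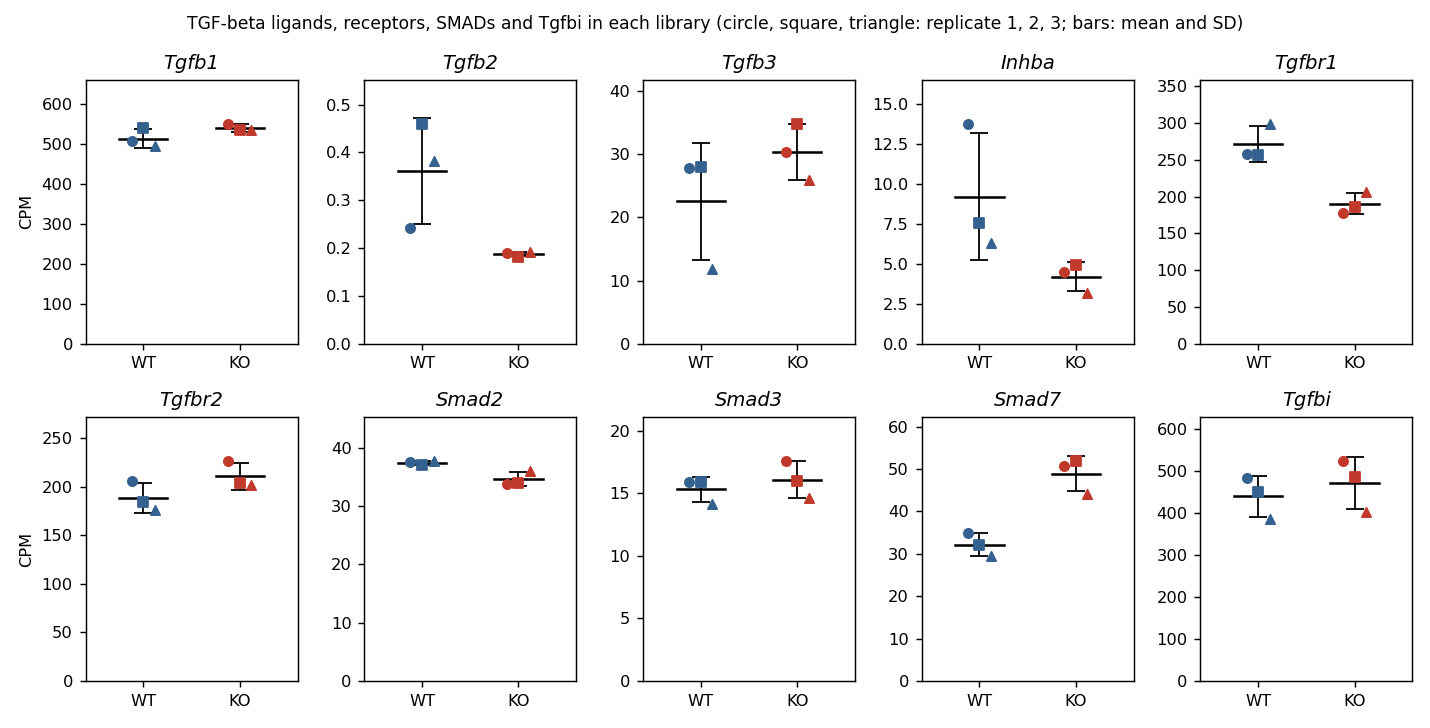
CPM of each member in each library, WT in blue and KO in red, with 1 panel per gene, symbols for the replicate number, a line at the mean and bars for the SD; every axis starts at 0. *Tgfbr1* and *Smad7* show groups that lie apart, *Inhba* is highest in WT replicate 1, and *Tgfb3* is lowest in WT replicate 3.

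*Tgfb1*, the ligand made by most immune cells, was the main ligand transcript in both genotypes. It had 550.3, 534 and 533 CPM in KO libraries and 506, 539 and 494 CPM in WT libraries, and the groups overlapped. The log2 fold change was 0.07 (standard error, SE, 0.07, edgeR adjusted p = 0.429, 95% interval -0.08 to 0.22). *Tgfb2*, a ligand best known from mesenchymal and epithelial tissues, was barely counted, with 8, 6 and 8 reads in KO and 12, 20 and 16 in WT. All KO values lay under all WT values, but the log2 fold change of -0.92 (SE 0.36, edgeR adjusted p = 0.0745) was not called. *Tgfb2* passed the filter on low counts only through WT, where it was higher, so the separation of its groups was not read as a result. *Tgfb3*, the remaining isoform, had 1292, 1151 and 1084 reads in KO and 1384, 1216 and 497 in WT, or 30.4 ± 4.44 and 22.6 ± 9.27 CPM (SD, n = 3). WT replicate 3 lay far under the other 5 libraries. The log2 fold change was 0.43 (SE 0.27, edgeR adjusted p = 0.248), 0.12 without that library, and 0.48 with the replicate block (edgeR adjusted p = 0.0136). Exons of *Tgfb2* and *Tgfb3* overlap gene models on the opposite strand, each with at most 1 count in a library.

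*Inhba* encodes the subunit of activin A and showed the largest fold change of the members. It had 4.48, 4.91 and 3.19 CPM in KO libraries, from 190, 162 and 133 reads, and 13.8, 7.54 and 6.32 CPM in WT libraries, from 685, 328 and 265 reads. The groups did not overlap, and WT replicate 1 was well above the other WT libraries. *Inhba* was 2.22-fold lower in KO, a log2 fold change of -1.15 (SE 0.29, edgeR adjusted p = 0.0116). Without WT replicate 1 it was -0.73, still called. The fibroblast markers, given above, were also lower in KO, and their part in the *Inhba* values was not tested. In bulk RNA, fewer cells of a type and less RNA per cell cannot be told apart.

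The receptors parted. *Tgfbr1*, the type I receptor that phosphorylates SMAD2 and SMAD3, had 178, 186 and 206 CPM in KO and 258, 257 and 299 CPM in WT. Every KO library lay under every WT library. It was 1.43-fold lower in KO, a log2 fold change of -0.51 (SE 0.09, edgeR adjusted p = 0.00160), and the alternatives ran from -0.58 to -0.44, all called. *Tgfbr2*, the type II receptor that binds the ligand first, had 227, 204 and 202 CPM in KO and 206, 185 and 176 CPM in WT, and the groups overlapped. Its log2 fold change was 0.16 (SE 0.08, edgeR adjusted p = 0.149), and the call changed with the replicate block (0.16, adjusted p = 0.00685) and without WT replicate 1 (0.23, adjusted p = 0.0312). The ratio of *Tgfbr2* to *Tgfbr1* counts, which does not depend on scaling, was 1.27, 1.09 and 0.980 in KO and 0.797, 0.718 and 0.589 in WT. All KO ratios exceeded all WT ratios, with a mean difference of 0.67 on the log2 scale (exact permutation test, 2-sided p = 0.1, the smallest that 3 against 3 allows, and 0.15 adjusted over 3 ratios).

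The promoters of the members called lower differ widely in composition, and they are shown with that of *Tgfbr2*, the receptor gene that was not called. Sequences are from RefSeq on GRCm38.p6. The set of windows used here held 7 of the 10 members. It did not include *Tgfb3*, *Smad2* and *Smad7*, whose promoters were not examined. Each run is the 250 bases before the start of the transcript, in the direction of transcription. *Inhba* is on the forward strand of chromosome 13 (gene from 16011851 to 16031621), *Tgfbr1* on the forward strand of chromosome 4 (47353222 to 47414931) and *Tgfbr2* on the reverse strand of chromosome 9 (116084293 to 116175360). Capitals mark matches, on either strand, to 6 motifs: the SMAD box CAGAC, the AP-1 site TGANTCA, the TEAD site GGAATG, the interferon-stimulated response element (GAAA and GAAA with 2 bases between), the GC box GGGCGG and the TATA element TATAAA.
*Inhba* (chr13:16011601-16011850, forward strand): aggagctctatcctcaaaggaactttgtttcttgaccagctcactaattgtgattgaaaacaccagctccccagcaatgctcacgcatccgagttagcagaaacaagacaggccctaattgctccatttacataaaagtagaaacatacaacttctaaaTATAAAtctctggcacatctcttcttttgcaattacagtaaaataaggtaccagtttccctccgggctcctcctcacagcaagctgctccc
*Tgfbr1* (chr4:47352972-47353221, forward strand): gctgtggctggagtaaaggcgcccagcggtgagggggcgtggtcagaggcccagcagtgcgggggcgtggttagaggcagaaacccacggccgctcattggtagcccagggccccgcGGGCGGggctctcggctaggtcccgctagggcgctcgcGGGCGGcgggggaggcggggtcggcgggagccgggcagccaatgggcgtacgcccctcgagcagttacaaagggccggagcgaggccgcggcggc
*Tgfbr2* (chr9:116175364-116175613, reverse strand): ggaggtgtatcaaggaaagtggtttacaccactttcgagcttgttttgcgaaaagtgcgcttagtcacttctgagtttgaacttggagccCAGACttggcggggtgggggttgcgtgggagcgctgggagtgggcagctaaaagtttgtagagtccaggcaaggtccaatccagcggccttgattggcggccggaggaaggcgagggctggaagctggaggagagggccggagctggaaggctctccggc

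The *Inhba* window was 43.2% G and C with 3 CpG, and its single match was a TATA element that begins 91 bases before the start. The *Tgfbr1* window was 74.8% G and C with 29 CpG, and held 2 GC boxes, which begin 133 and 95 bases before the start. The *Tgfbr2* window was 58.4% G and C with 12 CpG and held 1 SMAD box, 160 bases before the start. The median of the 32851 RefSeq windows of this length outside chromosome 18 was 52.4% with 6 CpG. Of these windows, 42.2% hold the SMAD box, 32.7% the GC box, 12.6% the TEAD site, 12.4% the TATA element, 6.75% the AP-1 site and 2.98% the interferon-stimulated response element. In the printed windows no match overlapped another, and a match is a run of letters, not a measured site.

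*Smad7* was the member called higher. It had 50.6, 51.9 and 44.1 CPM in KO and 34.9, 32.1 and 29.4 CPM in WT, and every KO library lay above every WT library. The level was 1.52-fold that of WT, a log2 fold change of 0.60 (SE 0.09, edgeR adjusted p = 6.89e-04). The alternatives ran from 0.54 to 0.68, all called. *Smad2*, which carries the signal of TGFBR1, had 33.8, 34.0 and 36.1 CPM in KO and 37.5, 37.1 and 37.7 CPM in WT. These groups did not overlap, but the log2 fold change of -0.11 was small (SE 0.06, edgeR adjusted p = 0.159, 95% interval -0.24 to 0.02), and upper-quartile scaling alone brought it under the threshold (-0.18, adjusted p = 0.0428). *Smad3*, its partner, had 17.6, 16.0 and 14.6 CPM in KO and 15.9, 15.9 and 14.1 CPM in WT, with a log2 fold change of 0.07 (SE 0.09, edgeR adjusted p = 0.571, 95% interval -0.13 to 0.27). Its groups overlapped, and the sign turned without KO replicate 1. The ratio of *Smad3* to *Smad2* counts was 0.520, 0.471 and 0.406 in KO and 0.423, 0.430 and 0.374 in WT, which overlapped (mean log2 difference 0.18, exact permutation 2-sided p = 0.3).

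*Tgfbi*, which encodes a secreted matrix protein named for its induction by TGF-β, had 523, 485 and 402 CPM in KO and 482, 449.6 and 386 CPM in WT. In both genotypes replicate 1 was highest and replicate 3 lowest, and the groups overlapped. The log2 fold change was 0.10 (SE 0.11, edgeR adjusted p = 0.532, 95% interval -0.16 to 0.35). With a library left out it was 0.01 to 0.20. The ratio of *Inhba* to *Tgfb1* counts was 0.00816, 0.00922 and 0.00600 in KO and 0.0272, 0.0140 and 0.0128 in WT, a mean log2 difference of -1.15 (exact permutation 2-sided p = 0.1, the smallest possible).

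**Figure D3:**
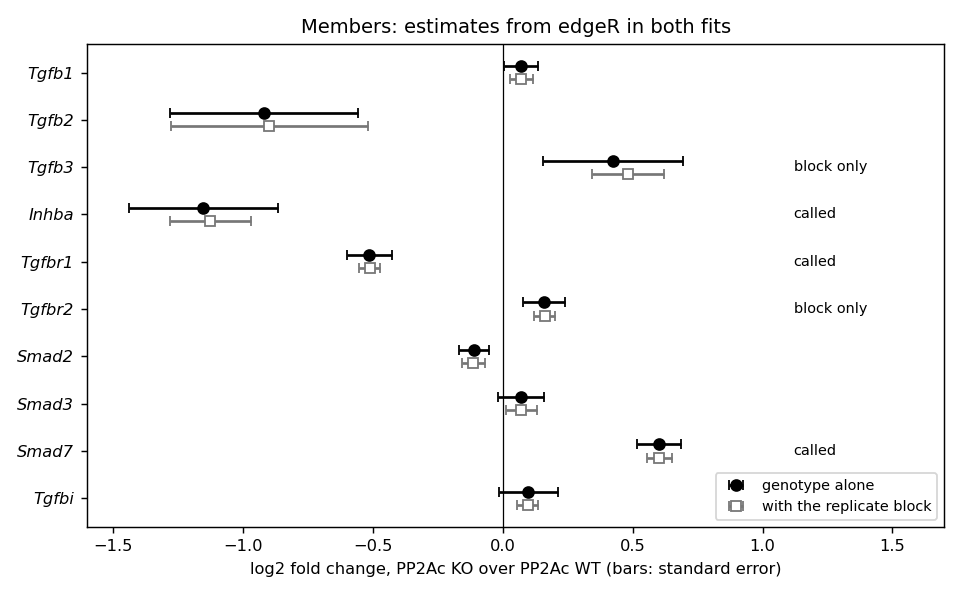
Log2 fold change of each member, KO over WT, from edgeR with genotype alone (filled circles) and with a replicate block (open squares), bars for the standard error. Values for the 2 fits lie close together, and the bars are narrower with the block for all members but *Tgfb2*; "called" marks an adjusted p under 0.05 with genotype alone and "block only" those called in the block fit alone.

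The genes whose log2 CPM followed *Inhba* most closely over the 6 libraries were *Golim4*, *Hsp90aa1* and *Sgms2*, with Pearson correlations of 0.995, 0.994 and 0.993. Their own log2 fold changes were small, at -0.13, -0.12 and -0.31, and *Sgms2* alone was called (edgeR, adjusted p = 0.0362). For *Tgfb1* they were *9530085L11Rik*, *Phlda3* and *Fcna*, with 0.978, 0.974 and 0.967. These describe 6 points that share library and genotype, picked from all genes tested.

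Around the members, 109 other genes of the pathway were listed, of which 83 were tested. They were listed by hand with earlier results of these data known, so the shares called are a description only. Of these, 20 were higher and 25 lower in KO (edgeR), together 54.2%, beside 37.1% of all genes tested, and the median log2 fold change was -0.06, beside -0.02 over all genes tested. At a mean of at least 10 CPM, a limit chosen after the data were examined, 16 of 58 were higher and 16 lower, beside 24.6% and 17.2% of all genes at that level.

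Among 24 other ligand genes 8 were tested, with 4 higher and 2 lower, together 75%, beside 37.1% of all genes tested. *Inhbb*, the activin B subunit gene, fell as *Inhba* did. It had 37, 18 and 42 reads in KO and 124, 110 and 96 in WT, a log2 fold change of -1.57 (SE 0.21, edgeR adjusted p = 5.17e-04). The BMP ligand gene *Bmp8a* was also lower at -1.54 (adjusted p = 0.0196), on 5 to 35 reads per library. The genes that rose were *Bmp10* (2.42, on 5 to 62 reads), *Bmp2* (1.08), *Gdf11* (0.87) and *Gdf3* (0.30), named after its value was seen. *Bmp10* passed the filter on low counts only through KO and *Bmp8a* only through WT. In each case that is the group where the gene was higher, so neither fold change is independent of the filter. *Bmp2* went from 3.05 ± 0.401 CPM in WT to 6.46 ± 0.448 CPM in KO (SD, n = 3).

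Antagonists, which bind ligands outside the cell, were mostly lower. Of 8 listed, 6 were tested and 5 were lower, or 83.3%, beside 19.0% of all genes tested. The median log2 fold change was -1.57. *Fst*, which encodes follistatin and is named after its value was seen, was not called at -0.92 (adjusted p = 0.0841 from edgeR). With the replicate block *Fst* was lower (edgeR adjusted p = 0.0409), as were all 6, beside 26.4% of all genes lower in that fit. *Bgn*, which encodes the matrix proteoglycan biglycan, was at -1.68. *Fstl3*, an activin-binding protein gene, had 13, 8 and 18 reads in KO and 62, 50 and 32 in WT (-1.67, adjusted p = 0.00237 from edgeR). *Fstl3* passed the filter on low counts only through WT, where it was higher. The summed level of the 8 genes was 22.1 to 26.2 CPM in KO and 53.7 to 77.7 CPM in WT. The fibroblast markers moved with this list, and their part in it was not tested.

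Genes of latency and activation went both ways, with 3 higher and 6 lower among 17 tested, together 52.9%, beside 37.1% of all genes. With the replicate block 6 were higher and 8 lower, beside 50.9% of all genes called in that fit. *Nrros* and *Lrrc32*, genes of latent TGF-β carriers, parted. *Nrros*, which holds latent TGF-β on myeloid cells, went from 239.6 ± 10.1 CPM in WT to 389 ± 18.3 CPM in KO (0.70, adjusted p = 1.34e-04 from edgeR). *Lrrc32*, which encodes GARP, its relative on regulatory T cells and other cells, fell from 10.5 ± 2.76 to 3.50 ± 0.668 CPM (-1.59, adjusted p = 5.15e-04 from edgeR). The fibroblast markers were also lower in KO. Their part in *Lrrc32*, and in the other genes of this list that fell, was not tested. *Mmp14*, a membrane protease, and *Furin*, which cleaves the ligand precursor, were higher at 0.89 and 0.27. The matrix gene *Ltbp2* and the integrin gene *Itgb3* were lower at -1.30 and -0.64.

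Of 15 further receptor genes, 11 were tested, 3 were higher and 4 lower, together 63.6%, beside 37.1% of all genes tested. The co-receptor genes moved in opposite directions. *Eng*, which encodes endoglin, rose from 41.2 ± 3.53 to 74.2 ± 3.14 CPM (0.85, adjusted p = 8.39e-05 from edgeR). The 5 endothelial markers, a list without *Eng*, also summed higher in KO, at 240.6 to 312 CPM against 163.7 to 226.4 CPM. They did not all move together, with 2 higher and 1 lower among 3 tested, and their part in *Eng* was not tested. In contrast, *Tgfbr3*, which encodes betaglycan, fell from 1.23 ± 0.159 to 0.440 ± 0.0565 CPM (-1.47, adjusted p = 0.00101 from edgeR). It had 18, 13 and 21 reads in KO and 70, 50 and 47 in WT. The fibroblast markers were also lower in KO, and their part in *Tgfbr3* was not tested. The activin type I receptor gene *Acvr1b* was lower at -0.32, as *Tgfbr1* was, and *Bmpr1a* at -0.58. *Acvr1* and *Bmpr2*, which serve BMP ligands, were higher at 0.37 and 0.37. The activin type II receptor gene *Acvr2a*, named after its value was seen, was at -0.03 (adjusted p = 0.839 from edgeR).

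Inside the cell, 10 of 41 tested transducers and regulators were higher and 8 lower, together 43.9%, near the 37.1% of all genes. *Tgif2*, a SMAD corepressor gene on 6 to 21 reads, *Usp15*, a deubiquitinase gene for the receptor complex, and *Ppp2r2a*, a regulatory B subunit of PP2A, rose the most, at 1.14, 0.76 and 0.65. *Tgif2* passed the filter on low counts only through KO, where it was higher. *Cav1*, *Wwp1* and *Tab1* fell the most, at -1.05, -0.48 and -0.44. Chosen after their values were seen, *Smad6*, the other inhibitory SMAD gene, was higher at 0.32 (adjusted p = 0.0114 from edgeR), and *Smad4*, the common partner, was at 0.05 (adjusted p = 0.514).

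Genes known as TGF-β targets were called in both directions. The list was written by hand with earlier results of these data known, so its share called is a description only. All 40 listed were tested, with 10 higher and 23 lower (edgeR), together 82.5%, beside 37.1% of all genes tested (18.1% higher and 19.0% lower), and a median log2 fold change of -0.68. Of those lower, the largest decreases were in the collagen genes *Col1a1* and *Col1a2*, at -2.10 and -2.05, and the contractile gene *Tagln*, at -2.03. *Col1a1* had 362, 235 and 278 reads in KO and 1722, 1510 and 1120 in WT. The largest increases were in *Junb*, an AP-1 subunit gene, *P2ry12*, a purinergic receptor gene of microglia, and *Id1*, an inhibitor of differentiation, at 1.34, 1.29 and 1.16. *Junb* rose from 213.7 ± 15.3 to 539 ± 41.8 CPM (SD, n = 3, adjusted p = 3.90e-05 from edgeR). *Ccn2*, chosen after its value was seen, was lower at -1.62.

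The list shares 5 genes with the fibroblast and smooth muscle markers. All 5 were lower, with a median of -1.97. Among the other 35 targets, 10 rose and 18 fell, together 80%, beside 37.1% of all genes tested. Their median was -0.48, and this count was chosen after the data were examined. The 35 still hold the contractile gene *Tagln*, which is on neither marker list. At a mean of at least 10 CPM, 8 of 24 targets were higher and 11 lower, beside 24.6% and 17.2% of all genes at that level. The part of fibroblast RNA in the targets that fell was not tested.

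**Figure D4:**
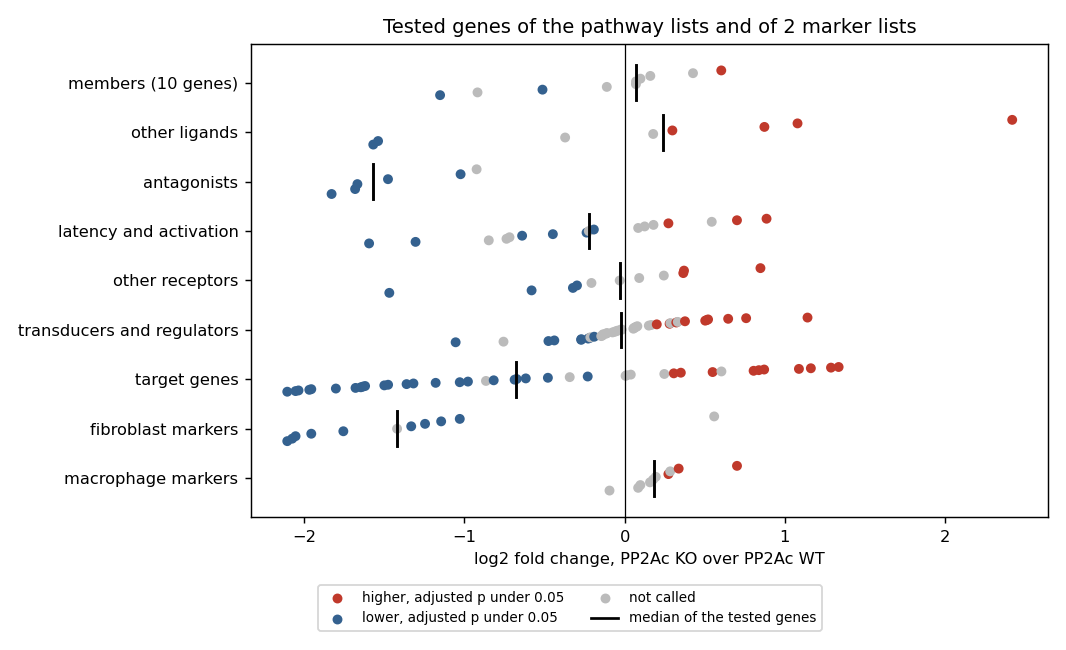
Log2 fold change of each tested gene, KO over WT, by list, with red for genes called higher, blue for genes called lower, gray for genes not called and a black line at the median. Antagonists, target genes and fibroblast markers have medians of -1.57, -0.68 and -1.42, and the 10 members lie between -1.15 and 0.60 with a median of 0.07.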

How the data were processed

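Poly(A) RNA of 6 BMDM samples was made into directional libraries and sequenced in paired reads of 150 bases. The authors deposited raw counts of reads per gene symbol, without normalization, on mm10. The submitters' processing notes list fastp 0.20.0, STAR 2.7.1a, HTSeq 0.11.2, kallisto 0.46.1, edgeR 3.34.0 and limma 3.48.3, and the annotation and strand setting are not given in the sources used here.

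Counts were fitted in R 4.3.3 with edgeR 4.0.16 (filterByExpr, TMM, glmQLFit, glmQLFTest for genotype, 2-sided), and p-values adjusted by Benjamini-Hochberg across the 13680 genes kept. CPM use the TMM factors, and 3 counts equal 0.0604 to 0.0909 CPM, for counting error only. Ratios within a library used counts plus 0.5. Exon lengths came from GENCODE M21 on GRCm38, which held 98.4% of the symbols. Of the 50-base windows in members' transcripts, at most 0.586% (*Tgfbr2*) occur in other genes. Nothing in the labels says that libraries are separate mice, so p-values measure the spread between these libraries.

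Libraries of 1 genotype differed by 9.54 to 46.0 times counting variance. Same-numbered libraries deviated together from their group means (correlations across genes of 0.249, 0.126 and 0.310), a pairing that rests on the data. Libraries with different numbers were not compared in this way, so the pairing itself was not tested. The replicate number was also fitted as a block. Other alternatives were RLE and upper-quartile scaling, other filters, DESeq2 1.42.0, limma-voom (limma 3.58.1) and each library left out. The gene test was tested on simulated data, with changes placed in genes above 1 CPM. It found 40 of 50 genes changed 1.5-fold and 47 of 50 changed 2-fold. Smaller changes, and genes as low as *Tgfb2*, were not simulated.

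The members and gene lists were chosen with earlier results of these data known, and the lists were written by hand. The text names all members, the genes with the largest called changes on each list (3 in each direction), the 3 genes most alike to *Tgfb1* and to *Inhba*, and genes said to be chosen after their values were seen. A gene that this rule names is not reported here.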

Additional observations from a re-analysis of the deposited data

How the results depend on the processing

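The calls of *Inhba*, *Tgfbr1* and *Smad7* kept their direction and their side of the threshold under all 13 alternatives run for each (adjusted p at most 0.0453, 0.0109 and 0.00461). The number of members called higher was 1 in the main setting, 2 without a filter on low counts (*Tgfb3* was added, adjusted p = 0.00790 from edgeR), 3 with the replicate block, and 1 to 2 with a library left out. The number called lower was 2, and 2 to 3 with a library left out, where *Tgfb2* was added without WT replicate 1 (-1.15, adjusted p = 0.0313 from edgeR). At an adjusted p under 0.01 and a log2 fold change over 1 in size, both numbers were 0, and the unadjusted p was under 0.05 for 4 members. *Smad3* reversed without KO replicate 1, to -0.0065, and ran to 0.139 without KO replicate 3. *Tgfb2* had no value with at least 10 counts required in every library, and *Smad2* was called with upper-quartile scaling alone. Counts over the other pathway genes ran from 15 to 24 higher and 19 to 24 lower with a library left out, and over the targets from 10 to 11 and 20 to 22. With the replicate block they were 28 and 32, and 11 and 24, beside 50.9% of all genes called in that fit. With at least 10 CPM, the numbers lower were 16 and 11. The replicate block changed no call of a member other than *Tgfb3* and *Tgfbr2*. Ratios within a library kept their sign in every setting, with leave-one-out ranges of 0.55 to 0.77, 0.10 to 0.28 and -1.35 to -0.80. RLE and upper-quartile scaling placed the median of all genes at -0.0021 and -0.09. *Tgfb2* rests on 6 to 20 reads per library. The causes of these shifts were not tested.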
